A study of Arabidopsis thaliana with 6 samples.

Results

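The CSLA genes of Arabidopsis thaliana encode cellulose synthase-like A proteins, the enzymes of the Golgi apparatus that build the backbone of mannan and glucomannan, which are polysaccharides of the cell wall. The 9 genes described here are CSLA01, CSLA02, CSLA03, CSLA07, CSLA09, CSLA10, CSLA11, CSLA14 and CSLA15, chosen by gene name out of 27444 protein-coding genes. They were chosen as a family because CSLA01 holds one of the strongest sites of the experiment, so the strength of that site and the presence of peaks at the family are descriptions and are not tested. Mannans occur in stems, leaves, seeds and seed mucilage, where they lie among the cellulose fibres. The enzymes use GDP-mannose and, for glucomannan, GDP-glucose as donors. RGA belongs to the DELLA proteins, which restrain growth in the nucleus until gibberellin triggers their breakdown, and which reach DNA through partner transcription factors.

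Chromatin immunoprecipitation and sequencing (ChIP-seq) was carried out on inflorescence apices, in 2 groups of 3 biological replicates each. The RGA-GFP plants carried RGAp:GFP-rga-delta17, in which the RGA promoter drives a form of RGA that resists gibberellin and is fused to green fluorescent protein (GFP). The wild type plants had no GFP epitope, so their peaks are the background of the same pull-down. Both groups were of the Landsberg-erecta accession, were grown under 16 h of light and were precipitated with the same anti-GFP beads; the labels do not say whether the RGA-GFP plants also had a working RGA gene of their own, or how many transgenic lines were used. The RGA-GFP libraries kept 14644122, 15704296 and 16745139 tags once duplicate tags were dropped, against 10014730, 8808462 and 3999159 in the wild type libraries, and gave 10636, 11116 and 9343 peaks against 972, 285 and 527. The pileup is the number of extended tags over the summit of a peak, and the normalised pileup is that number per 1000000 tags kept. The lowest normalised pileup of any called peak was 4.84 to 4.98 in the RGA-GFP libraries, against 5.89, 6.47 and 8.0 in wild type libraries 1, 2 and 3, so a weak site could be called in the RGA-GFP libraries and missed in the shallower wild type ones.

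RGA-GFP gave a pooled peak at 7 of the 9 CSLA genes, and every one of the 9 had a peak in at least 1 RGA-GFP replicate list: 8 by the authors' deposited table, which lists 46.1% of all protein-coding genes with one, and CSLA09 by a peak inside the gene. A pooled peak is one that the authors called on the merged RGA-GFP replicates, with the merged wild type replicates as the control. By the authors' deposited table of genes, 6 of the 9 had a pooled peak in their window, against 29.7% of all protein-coding genes, and 6 had a peak in all 3 replicate lists, against 30.1%. The windows of that table run up to 3000 bp upstream and 1500 bp downstream of the coding sequence, and a peak must share 50 bp with them. The remaining gene, CSLA09, has no row in that table as used here, although a pooled peak that all 3 RGA-GFP lists hold lies inside the gene. CSLA09 was added by that peak, a choice made after its values were seen. Of 2623 protein-coding genes with such a peak inside them, 120 (4.57%) had no row in the table. Pooled folds of 2 or more were found at CSLA01, CSLA10, CSLA07 and CSLA09; by the table alone it was 3 of 9 members, against 5.22% of protein-coding genes. These shares come from the contrast by which the family was chosen, and nothing is read from them.

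CSLA01 (AT4G16590), whose product makes mannan when expressed in insect cells, carried the strongest site of the family. The pooled peak (TAIR10, chromosome 4, 9347482 to 9348224) had a pooled fold of 2.75 over the combined wild type and a −log10 q of 39.1. It ranked 30th by fold and 10th by q among 8112 pooled peaks, whose median fold was 1.70 and highest fold 3.54. In the single replicate lists, where the fold is taken over the library's own background, the site had folds of 5.76, 5.32 and 4.86 in RGA-GFP replicates 1, 2 and 3 (mean 5.31 ± 0.45, SD, n = 3). The summit pileups were 333, 328 and 287 tags, and no wild type list held a peak there. The site was thus high in all 3 RGA-GFP libraries, and 99.8% of the 6281 pooled peaks found in all 3 lists had a lower mean replicate fold.

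The CSLA01 summit lay inside the gene, 2671 bp from its start, at 65.0% of its length. The summits of the 3 replicates fell within 56 bp of each other. Gene ends are those of the RefSeq models of assembly TAIR10.1. The direction of a gene comes from the longer flank of its window, which gave it for 5 of the 9 genes. A further peak, of RGA-GFP replicate 2 only, reached 139 bp into the far upstream end of the CSLA01 window, with a fold of 1.56. No other gene in the authors' deposited table has a window that shares 50 bp with the main peak.

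CSLA02 (AT5G22740), CSLA09 (AT5G03760) and CSLA03 (AT1G23480) are together needed for the glucomannan of the Arabidopsis stem, and CSLA02 also makes the glucomannan of seed mucilage. All 3 had a pooled peak in all 3 RGA-GFP lists. All 3 of these pooled peaks overlapped a wild type peak, against 6.29% of all pooled peaks (510 of 8112), and nothing is read from the difference. CSLA02 had folds of 4.84, 4.51 and 3.71 in RGA-GFP replicates 1, 2 and 3 (mean 4.35 ± 0.58, SD, n = 3), second in the family. Its pooled peak (chromosome 5, 7557313 to 7558205) had a pooled fold of 1.95 and lay inside the gene, 2405 bp from its start and at 43.7% of its length. The normalised pileup was 19.4, 16.9 and 14.1 tags in the RGA-GFP libraries, against 6.69 tags in wild type library 1. All 3 RGA-GFP values lay above the only wild type value, and the other wild type lists held no peak there.

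At CSLA09 the replicate folds were 4.19, 3.26 and 2.80 (mean 3.42 ± 0.71, SD, n = 3), and the pooled peak (chromosome 5, 987580 to 988081) had a fold of 2.05 and a −log10 q of 15.6. The summits of the 3 RGA-GFP replicates lay within 9 bp of each other, in the body of the gene, at 44.4% of its length from the left edge. Wild type library 3 had a peak with its summit 3 bp from the pooled summit, of 32 tags (exact Poisson 95% interval 21.9 to 45.2, for counting error only). The normalised pileup was 14.9, 11.8 and 9.44 tags in the RGA-GFP libraries, against 8.0 tags in wild type library 3. That is also the lowest pileup at which this wild type library called any peak. The gap between the groups was smaller here than at CSLA02, with RGA-GFP replicate 3 close above the wild type value. Scaled in the same way, the wild type Poisson interval includes the value of replicate 3 but not those of replicates 1 and 2.

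CSLA03 had the lowest pooled fold of the family, 1.47, at a peak that only partly lay in its window (chromosome 1, 8336362 to 8336762, 322 bp shared). The summit was 155 bp downstream of CSLA03 and 24 bp from ARF1 (AT1G23490), an ADP-ribosylation factor gene whose window shares the peak. The replicate folds were 2.86, 2.79 and 2.17 (mean 2.61 ± 0.38, SD, n = 3). The normalised pileup was 10.5, 10.3 and 8.06 tags in the RGA-GFP libraries, against 5.99 tags in wild type library 1, whose summit lay 7 bp from the pooled one. Which of the neighbouring genes the site belongs to cannot be read from position.

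**Figure D1:**
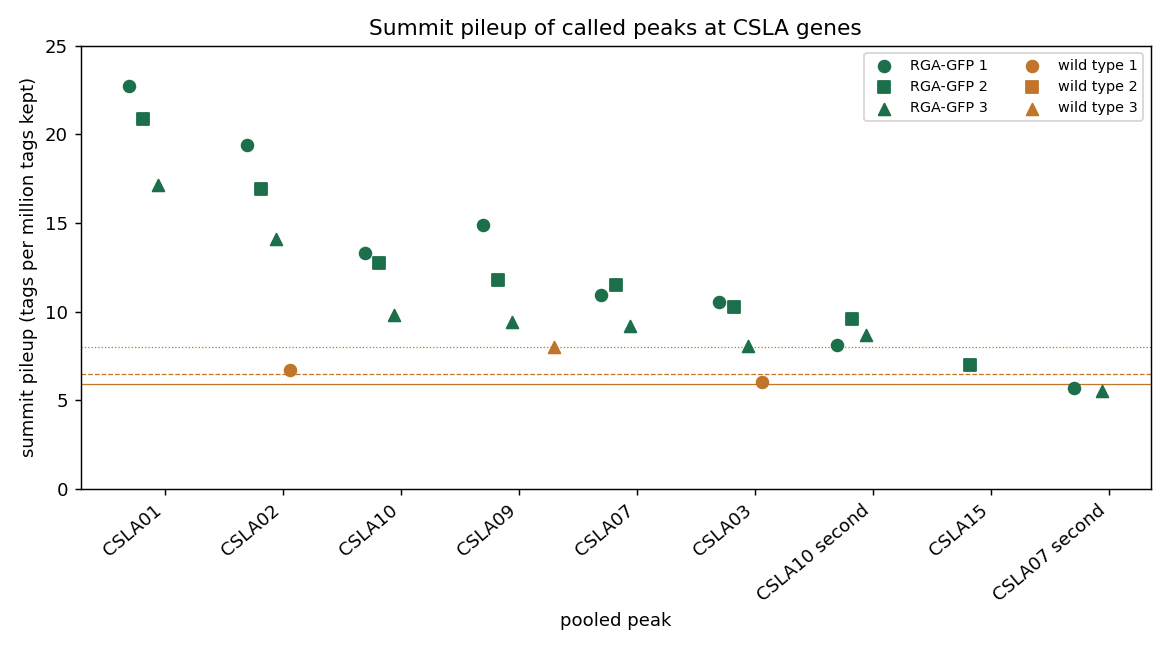
Normalised summit pileup, in tags per 1000000 tags kept, of every called peak that overlaps a pooled CSLA peak, with RGA-GFP libraries in green and wild type libraries in orange, and pooled peaks ordered by mean replicate fold. A library without a point called no peak, and the orange lines mark the lowest pileup called in wild type library 1 (solid), 2 (dashed) and 3 (dotted). CSLA01 runs from 17.1 to 22.7 in RGA-GFP with no wild type point, and at CSLA09 the lowest RGA-GFP value (9.44) lies closest above its wild type point (8.0).

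CSLA07 (AT2G35650) is needed for pollen tube growth and embryo development. The summit of its main peak lay 1076 bp outside the gene (chromosome 2, 14984111 to 14984710), where the pooled fold was 2.10. The replicate folds were 3.01, 3.01 and 2.54 (mean 2.85 ± 0.27, SD, n = 3), and no wild type list held a peak there. The summit was only 55 bp from AT2G35640, a gene described in the authors' deposited table as a homeodomain-like protein, whose window shares the peak. A weaker pooled peak (chromosome 2, 14987979 to 14988617, pooled fold 1.48) had its summit inside CSLA07, at 91.6% of the gene's length from the left edge. RGA-GFP replicates 1 and 3 had folds of 1.66 and 1.64 there, their summits were 184 bp apart, and replicate 2 had no peak. The summit of replicate 3 lay 10 bp outside the gene.

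CSLA10 (AT1G24070) had 2 pooled peaks, both in all 3 RGA-GFP lists and in no wild type list. The stronger one lay within CSLA10 itself (chromosome 1, 8517232 to 8517662). Its pooled fold was 2.47, the second highest of the family, with replicate folds of 3.93, 3.77 and 2.90 (mean 3.54 ± 0.55, SD, n = 3). Its summits in the 3 replicates lay within 7 bp of each other. The second peak (chromosome 1, 8519972 to 8520418, pooled fold 1.70) had its summit 153 bp outside the other end of the gene. Its replicate folds were 2.41, 2.71 and 2.57 (mean 2.56 ± 0.15, SD, n = 3). This peak is shared with the windows of the tRNA gene AT1G24080 and of AT1G24090, an RNase H family gene.

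CSLA15, CSLA11 and CSLA14 were the members with the weakest or least repeated signal. CSLA15 (AT4G13410) had a pooled peak (chromosome 4, 7793450 to 7793750, pooled fold 1.67) inside the gene that only RGA-GFP replicate 2 repeated, with a fold of 2.08 and 110 tags. CSLA11 (AT5G16190) had no pooled peak, yet 3 sites in its window were called in replicate lists. The site inside the gene, at 58.0% of its length from the start, had folds of 2.31, 2.17 and 1.87 in RGA-GFP replicates 1, 2 and 3 (chromosome 5, 5284657 to 5285021, mean 2.12 ± 0.23, SD, n = 3). The site 1148 bp upstream had 2.06, 2.30 and 1.94 (chromosome 5, 5287697 to 5288231, mean 2.10 ± 0.18, SD, n = 3). A site near the start of the gene was called in replicates 2 and 3 only, with folds of 1.88 and 1.76.

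No wild type list held a peak at CSLA11, and the level of the combined wild type at these sites is not given by the peak lists. In the authors' deposited table, 14.0% of protein-coding genes with a peak in 3 replicate lists had no pooled fold. CSLA14 (AT3G56000) had no pooled peak and 2 separate replicate peaks, of fold 1.65 in replicate 1 and 1.76 in replicate 2, 227 and 2873 bp upstream of the gene.

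**Figure D2:**
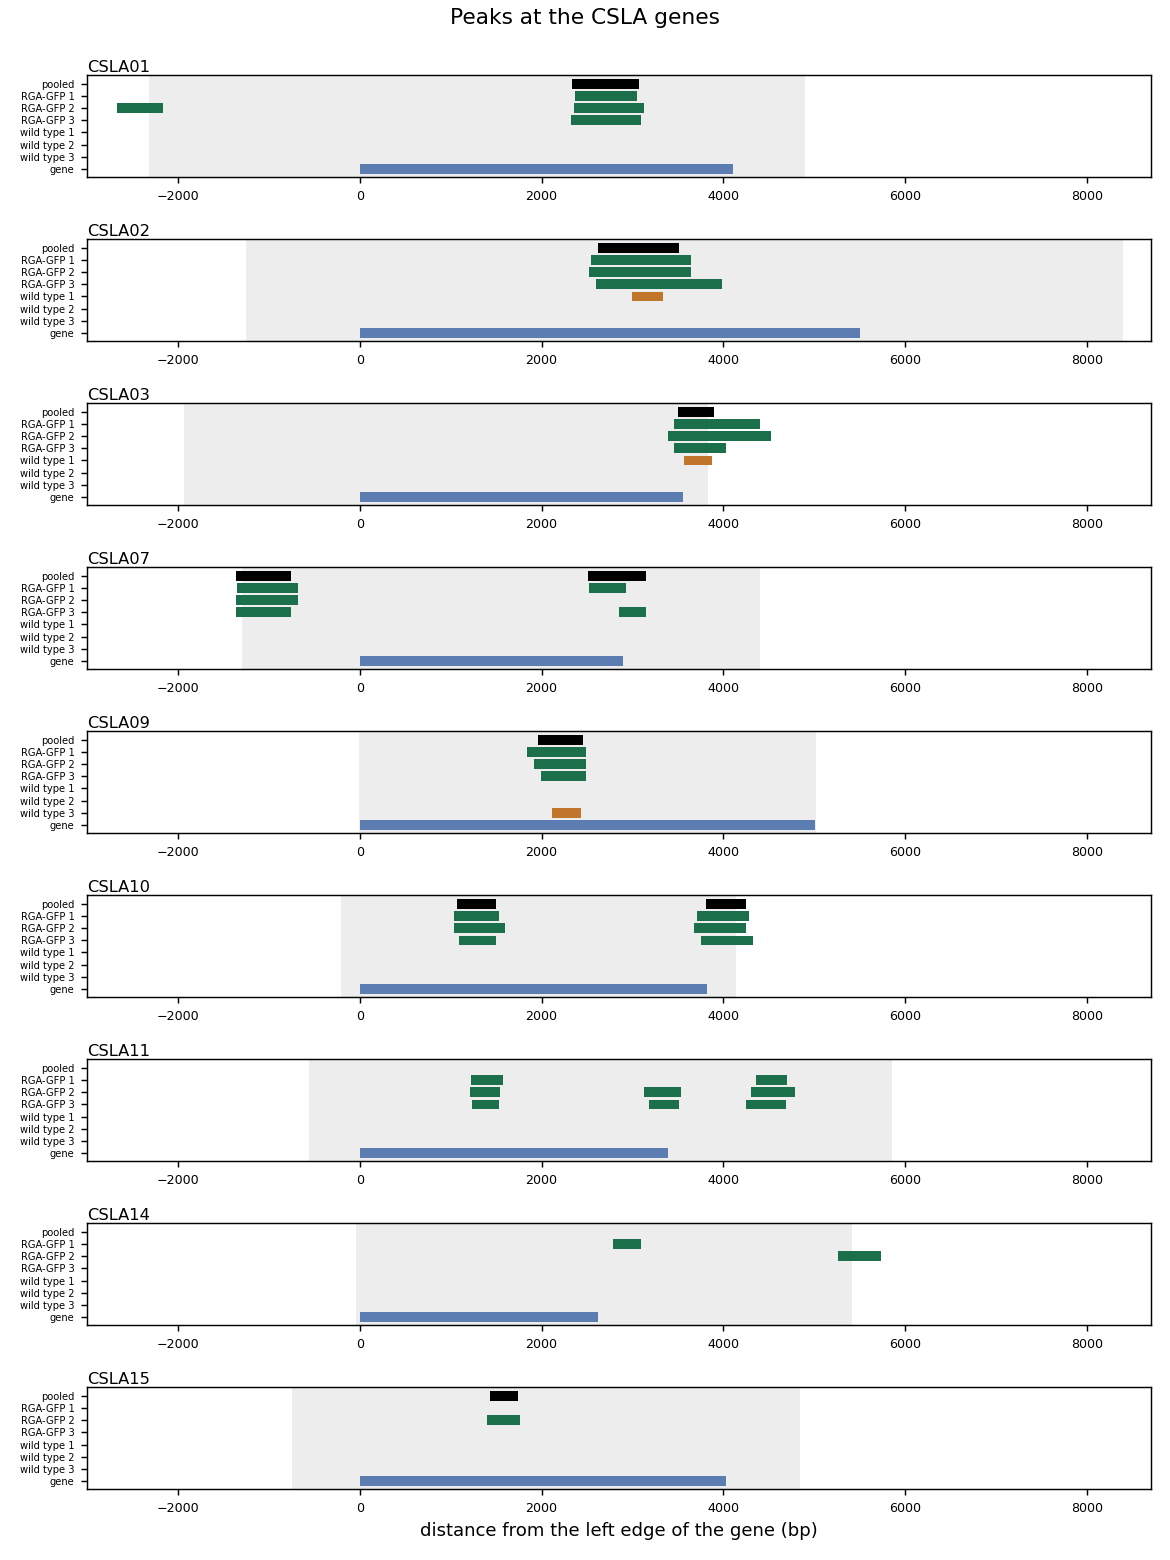
Peaks at the 9 CSLA genes, with the distance in bp from the left edge of each RefSeq gene model (blue bar) on the horizontal axis and 1 line each for the pooled list, the 3 RGA-GFP lists and the 3 wild type lists; grey marks the authors' window, or the gene itself for CSLA09. The green RGA-GFP peaks stack at CSLA01, CSLA02, CSLA09 and CSLA10 inside the gene, and orange wild type peaks occur at CSLA02, CSLA03 and CSLA09.

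Summits of pooled peaks lay inside the gene at 6 of the 9 members, which are CSLA01, CSLA02, CSLA07, CSLA09, CSLA10 and CSLA15, against 12.8% of all protein-coding genes. CSLA genes are long, with 2617 to 5502 bp and a median of 3819 bp against 2078 bp for all protein-coding genes, and the part of length in that share was not tested. The 12.8% (3501 genes) is taken over genes with and without a pooled peak, and 8156 had a pooled peak in their window. CSLA09 was itself added by its peak inside the gene. At CSLA07 only the weaker peak counts here, and its summit in replicate 3 lay 10 bp outside the gene. Nothing is read from the difference. The strongest sites of CSLA01, CSLA02, CSLA09, CSLA10 and CSLA15 had their summits between 34.5% and 65.0% of the gene's length from the left edge. These are only the members whose strongest summit lay inside the gene. The same position over all genes is not given here, so it is not read as a trait of the family. Of the genes whose direction was read, CSLA01 and CSLA02 had their pooled summit inside the gene and CSLA03 downstream of it. CSLA07, with its strongest site in a flank, had no direction that could be read.

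By mean replicate fold the 6 genes with a pooled peak in all 3 lists ran CSLA01, CSLA02, CSLA10, CSLA09, CSLA07 and CSLA03. CSLA11, which had sites in all 3 lists but no pooled peak, was left out of this order. The replicate values of CSLA01 (4.86 to 5.76) and CSLA02 (3.71 to 4.84) did not overlap, and CSLA01 was higher in each of the 3 libraries. Each later pair of neighbours overlapped: CSLA02 with CSLA10 (2.90 to 3.93), CSLA10 with CSLA09 (2.80 to 4.19), CSLA09 with CSLA07 (2.54 to 3.01), and CSLA07 with CSLA03 (2.17 to 2.86). Within single libraries CSLA02 was above CSLA10, CSLA09 above CSLA07 and CSLA07 above CSLA03 in 3 of 3, and CSLA10 was above CSLA09 in 2 of 3. Replicate 1 gave the highest fold and replicate 3 the lowest at 6 of the 7 CSLA pooled peaks in all 3 lists, although replicates 1 and 2 of CSLA07 were equal to 2 decimals. The exception was the second CSLA10 peak, where replicate 1 was lowest and replicate 2 highest. The order of 1 above 2 above 3 was found at 48.6% of the 6281 pooled peaks in all 3 lists.

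**Figure D3:**
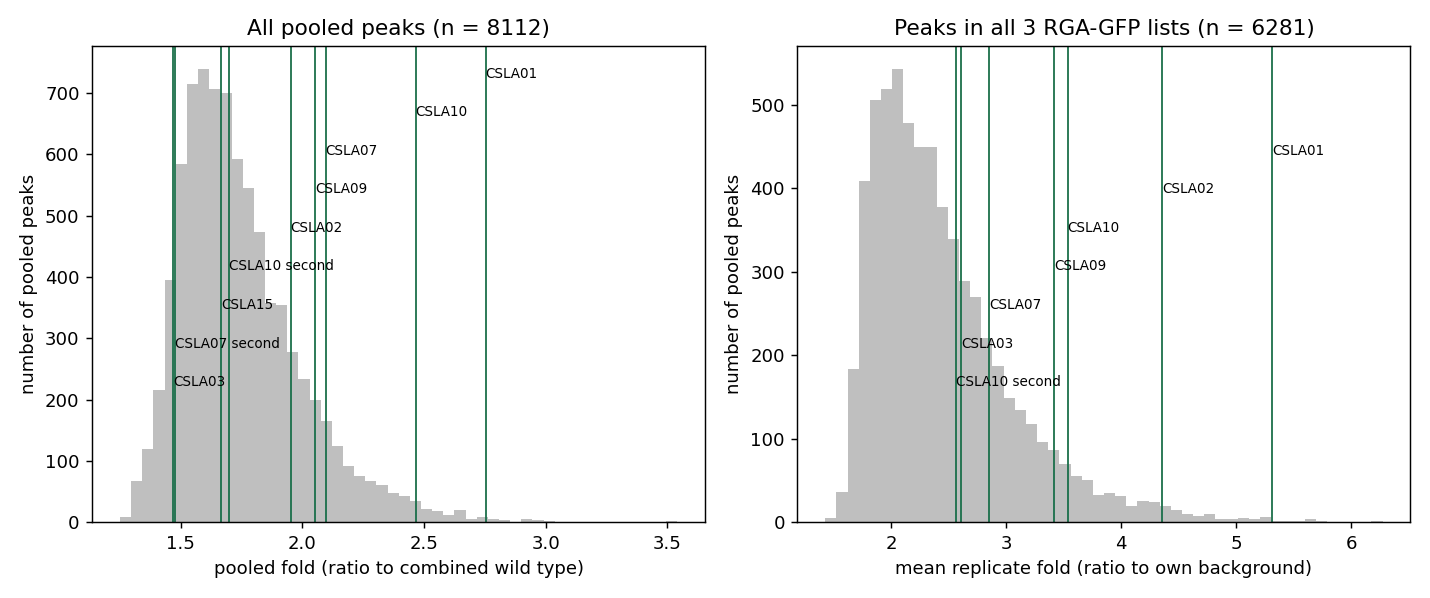
Number of pooled peaks by pooled fold over the combined wild type (left, 8112 peaks) and by mean replicate fold over each library's own background (right, 6281 peaks in all 3 RGA-GFP lists), with green lines at the CSLA peaks; "second" marks the weaker peak of a gene. CSLA01 lies far to the right in both, at 2.75 and 5.31, while CSLA02 is second on the right (4.35) and lower on the left (1.95).

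The order by pooled fold differed from the order by replicate fold. CSLA02 was second by mean replicate fold, above 98.5% of the pooled peaks in all 3 lists, but its pooled fold was above only 82.1% of all pooled peaks. The parts of the pooled fold can be read from the authors' values, since the fold is the pileup plus 1 over the background plus 1. At CSLA02 the scaled RGA-GFP pileup was 233 tags and the local background of the combined wild type 119 tags (exact Poisson 95% interval 98.6 to 142.4), 1.67 times the genome-wide level of 71.1 tags. Of all pooled peaks, 2.93% had a background as high as that or higher.

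At CSLA03 the RGA-GFP pileup was 162 tags and the wild type background 110 tags (90.4 to 132.6), 1.55 times the genome-wide level. At CSLA01 they were 258 and 93.0 tags (75.1 to 113.9), and at CSLA09 190 and 92.0 tags (74.2 to 112.8). At the stronger CSLA10 peak the RGA-GFP pileup was 177 tags over a background of 71.1 tags, the genome-wide level. The CSLA15 peak and the second CSLA07 peak had the same background. The background of a pooled fold is not set below that level, so the local wild type signal at these peaks may be lower. The second CSLA10 peak had 147 tags over a background of 86.0 tags (1.21 times the genome-wide level), and the main CSLA07 peak 173 over 82.0 tags (1.15 times). The local wild type background was thus above the genome-wide level at 6 of the 9 CSLA peaks, as it was at 67.8% of all pooled peaks, and 3 of those 6 had no wild type peak. The background of CSLA01 was higher than that of 81.3% of pooled peaks.

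At the CSLA peaks in all 3 lists the combined pileup was below the sum of the replicate pileups, by share most of all at CSLA01. After combining, only 1 tag was kept at each position and strand, so at most 600 tags of 300 bp can cover a base. At CSLA01 the combined RGA-GFP library had 474 tags, 50.0% of the 948 tags that the 3 replicate summits sum to, whereas over the whole genome 83.2% of the RGA-GFP tags were kept on combining. The same share was 54.6% at CSLA02, 58.1% at CSLA10, 62.2% at CSLA09, 64.2% at CSLA07 and 66.2% at CSLA03. Over the pooled peaks in all 3 lists its median was 67.6%, and 1.15% of them had a share lower than CSLA01. The replicate summits are separate maxima, up to 56 bp apart at CSLA01, 9 bp at CSLA09 and 7 bp at CSLA10. The parts of position and of dropped tags in these shares were not tested. Whether the pooled folds were changed by combining was not tested.

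**Figure D4:**
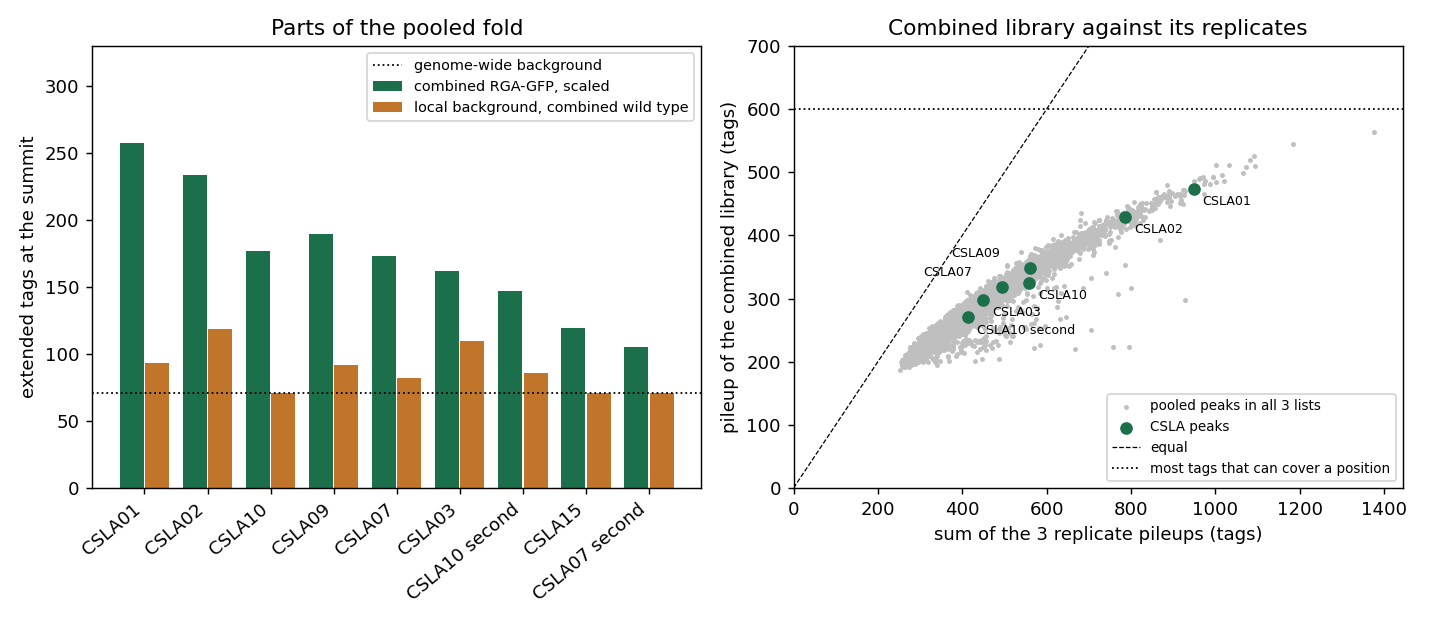
Left, extended tags at the summit of each pooled CSLA peak in the combined RGA-GFP library (green, scaled to the wild type depth) and local background of the combined wild type (orange), with the genome-wide background as a dotted line. Right, pileup of the combined RGA-GFP library before scaling against the sum of the 3 replicate pileups for all pooled peaks in all 3 lists (grey) and the CSLA peaks (green); the points bend below the dashed line of equality, and CSLA01 has 474 tags against 948.

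Of the 8 CSLA genes with a window, 2 had a wild type peak in it (CSLA02 and CSLA03, both from library 1), against 8.13% of protein-coding genes in the authors' deposited table and 9.83% of those with a pooled peak. Without wild type library 1, none of the 8 had one. CSLA09, which was added by its own peak, makes it 3 of 9. A pooled peak with no wild type peak anywhere in the window was found at 4 of 9 members, CSLA01, CSLA07, CSLA10 and CSLA15, against 26.8% of protein-coding genes.

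Among the other genes of mannan metabolism, 7 of 20 had a pooled peak by the authors' deposited table, against 29.7% of all protein-coding genes, with folds of 1.34 to 1.82. Of 8 genes that supply mannose or help mannan synthesis, 2 had one. AT1G74910, described there as an ADP-glucose pyrophosphorylase family gene, had a pooled fold of 1.78 and replicate folds of 2.13, 2.25 and 1.87 (mean 2.09 ± 0.19, SD, n = 3). MEE31, a phosphomannose isomerase gene, had 1.34 in the table alone and a wild type peak in its window. CYT1, which makes GDP-mannose, had peaks in 3 replicate lists and no pooled fold. MSR1 and MSR2, which promote mannan synthesis, had no row in the table.

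Genes that decorate mannan had a pooled peak at 3 of 5. The highest fold was that of TBL26 (1.82, and 1.85, 2.46 and 1.90 in the replicate lists), followed by the galactosyltransferase gene AT2G22900 (1.79) and TBL25 (1.77); TBL25 and TBL26 add acetyl groups to mannan. The endo-mannanases, which cut the polymer, had one at 2 of 7, with pooled folds of 1.71 at MAN5 and 1.69 at MAN7. MAN7 had replicate folds of 2.69, 2.74 and 2.70 at a site inside the gene (chromosome 5, 26540795 to 26541877). No gene of these 3 lists reached a pooled fold of 2, which 5.22% of protein-coding genes did.

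In the related enzyme families the counts were 2 of 5 for CSLC, which makes the glucan backbone of xyloglucan, 0 of 6 for CSLD, and 4 of 10 for CESA, the cellulose synthases. CSLC06 had a pooled fold of 1.81 and CSLC05 1.63. CSLD2 and CSLD3, which act in root hairs, had peaks in 3 replicate lists and a fold of 0 in the table. CESA2 was the strongest and the only one of the 41 genes in all 6 lists with a pooled fold of 2 or more. The summit of the 1 pooled peak in the CESA2 window lay 451 bp outside the gene (chromosome 4, 18302388 to 18302982). This peak had a pooled fold of 2.20, with replicate folds of 3.77, 3.49 and 2.73 (mean 3.33 ± 0.54, SD, n = 3). CESA6, CESA3 and CESA5 of the primary wall had 1.87, 1.82 and 1.78, with wild type peaks in the windows of CESA6 and CESA5. In all, 13 of the 41 genes (31.7%) had a pooled peak, near the 29.7% of all protein-coding genes.

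**Figure D5:**
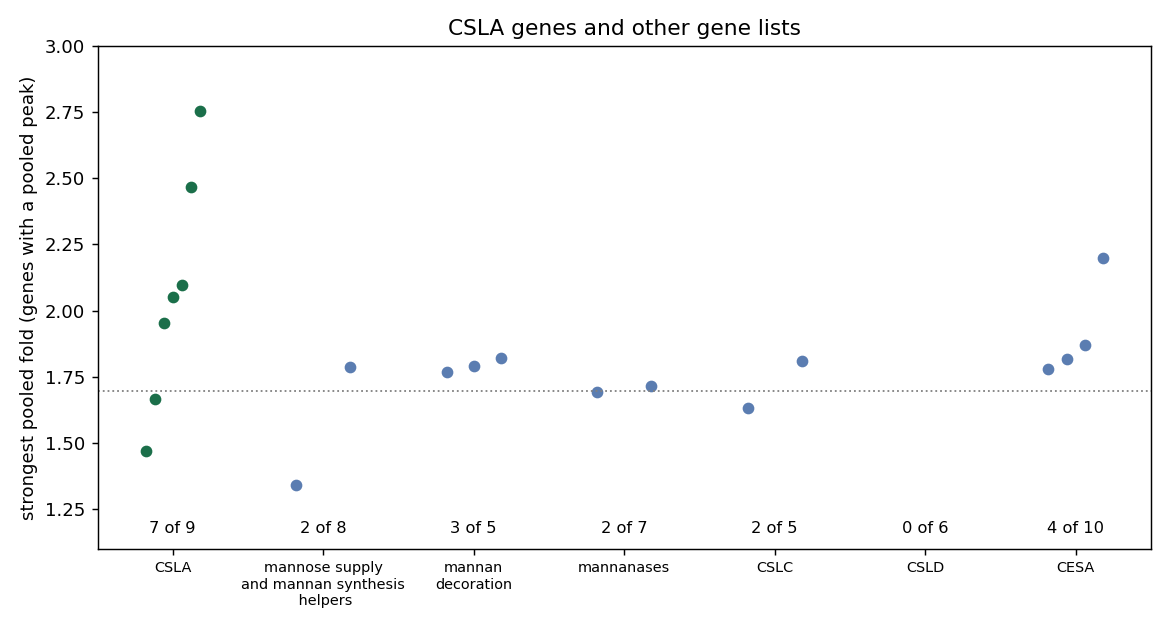
Pooled fold of each gene with a pooled peak, for the CSLA genes (green, strongest peak, CSLA09 included) and the 6 other lists (blue, from the authors' deposited table), with the number of such genes written under the points and the median of all pooled peaks as a dotted line. The CSLA genes spread from 1.47 to 2.75, and CESA2 at 2.20 is the highest of the other lists.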

How the data were processed

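Peaks of 6 ChIP-seq libraries, 3 per group by their titles, were used as deposited. Per the submitters' processing notes, Bowtie2, SAMtools and MACS2 2.0.10 were used on the TAIR10 build. Per the file headers, the single lists were made without a control, with tags extended to 300 bp and 1 tag kept per position. Their q cutoff was 0.05 and their background came from 10000 bp. The pooled list was made from combined RGA-GFP against combined wild type, with the larger set scaled down. For its background the header names 1000 and 10000 bp. The deposited pileup is a signal in tags, the deposited fold is a ratio to the local background, and the deposited significance is −log10 of the p or q value. The score of 1 to 3 lists per gene was read as the authors' deposited count of RGA-GFP replicate lists with a peak, which needed a log10 q of 3. CSLA14 goes against this reading, with a score of 1. Its separate peaks in replicates 1 and 2 had a −log10 q of 3.59 and 5.28. The authors head the score as a number of overlapping peaks, so peaks that lie apart may not add up in it.

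Peaks were joined to windows by an overlap of 50 bp, and to each other by 1 bp, in Python 3.11.15 with pandas 2.3.3. The replicate value of a pooled peak is that of the overlapping peak with the highest fold. Overlap counting was tested on simulated intervals. Background was computed from fold and pileup; of the backgrounds above the genome-wide level, 84.6% were whole numbers within 0.01. Names and gene ends came from RefSeq (assembly TAIR10.1), of which only distances are printed; an edge of 44.5% of the authors' windows lay on a RefSeq gene edge, against 0.308% after a shift of 137 bp. Direction was read where the window passed the gene by over 1500 bp on 1 side only. All values are descriptions, with no test. The members and lists were chosen with earlier results of these data known. All 9 members are named; genes of other lists are named where they lead their list or have a fold of 2 or more, and further ones were named after their values were seen. Of the 3 pooled peaks most like that of CSLA01, 1 is not reported here. Aligner settings were not given in the sources used here.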

Additional observations from a re-analysis of the deposited data

How the results depend on the processing

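No paired analysis was possible because the results come from no test, and the peak lists hold no values where no peak was called. Of 49 recomputed values, 46 stayed within the spread between replicates or within 1.5 times the count, and none reversed. For 18 of them, mean folds without 1 replicate, this was fixed in advance, since such a mean cannot leave the replicate spread. A count of 4 in place of 6 also falls within the rule, so the tally does not measure robustness. The count of CSLA genes with a wild type peak in the window ranged from 0 (without wild type replicate 1) to 2 when 1 wild type replicate was left out. Ranked by normalised pileup, CSLA09 took place 3 and CSLA10 place 4, the other way round than by fold. The count of genes with a pooled peak was 6, with 4 at a −log10 q of at least 10. It was 4 with pooled peaks on a wild type peak left out, and 7 with CSLA09, an alternative chosen after seeing the data. With any RGA-GFP replicate left out, 5 genes had a pooled peak that every remaining replicate list held. The pooled list itself was not called again, and the gene lost was CSLA15, repeated in replicate 2 only. Without 1 replicate, the mean fold of a gene moved by −11.3% to 9.08%. The wild type libraries are shallow in tags kept, so a site without a wild type peak was not shown to lack wild type signal. Duplicates made up 63.4%, 34.9% and 62.1% of all tags in wild type libraries 1, 2 and 3. In RGA-GFP libraries 1, 2 and 3 they made up 39.8%, 32.4% and 39.6%.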

Other observations

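By the sum of absolute log2 differences in 4 folds (pooled and 3 replicates), the pooled peaks most like that of CSLA01 included one at BAS1 (AT2G26710) and one that the windows of AT5G06970 and AT5G06980 share. BAS1, a cytochrome P450 gene that inactivates brassinosteroids, had a pooled fold of 2.44 and replicate folds of 5.81, 5.23 and 4.65 inside the gene (chromosome 2, 11382395 to 11383041). The peak at AT5G06970 and AT5G06980 had a pooled fold of 2.52 and replicate folds of 5.52, 5.47 and 4.68 (chromosome 5, 2166897 to 2167648). Neither peak overlapped a wild type peak.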
